A study of Mus musculus with 26 samples.

Results

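Killer lectin-like receptors are cell-surface proteins of natural killer cells and of some T cells, and most of their genes lie side by side in the natural killer gene complex on mouse chromosome 6. 7 of them, Klrb1a, Klrb1b, Klrb1c, Klrb1f, Klrd1, Klrk1 and Klrc1, were followed here by exact gene name through 26 RNA sequencing libraries of T cells sorted from Peyer's patches, the lymphoid follicles of the small intestine. They are 7 of 25814 genes in each table and 7 of 26 genes with a Klr name. All 26 Klr genes were on chromosome 6. The set was chosen by the exon read levels of these same libraries, with their elemental to conventional and CD44+ to CD44- differences known, so the differences of the 7 genes are given as a description, without p-values. Where it is said that a fit over all genes called some of them, the share of all genes called stands beside it and nothing is read from the count.

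The libraries came from C57Bl/6 mice in 4 groups. CD4+ T cells were taken from mice on an elemental diet (n = 6) or on a conventional diet (n = 6), with 22 ng of RNA and a poly(A) selection kit for each library. T cells sorted as CD44+ or as CD44- (n = 7 of each) came from mice on the conventional diet, with 1 ng of RNA and a low-input kit for each library. An elemental diet supplies free amino acids in place of whole protein, and CD44 binds hyaluronan and marks T cells with earlier antigen experience. The study set out to examine the effect of the diet on T cells of the Peyer's patch. Gating of the CD44 sorts on CD4 is not stated in the labels, nor is it stated that replicates were separate animals, so spreads and p-values describe these samples and may be partly technical. Cd4 averaged 38.5 ± 22.0 CPM in CD44+ libraries and 165 ± 156 CPM in CD44- libraries (SD, n = 7 each), against 239 ± 45.8 CPM in elemental and 353 ± 78.6 CPM in conventional CD4+ libraries (SD, n = 6 each). Levels are given in the counts-per-million unit (CPM), from exon reads after scaling by TMM, a correction for library composition. Cell population, kit and RNA input cannot be told apart between the 2 pairs, so each pair was scaled and fitted only within itself. Where levels of both pairs stand side by side, as for Cd4, they are a description, and no difference between pairs is read from them.

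Depth differed between the pairs. Exon reads ran from 17331588 to 22430541 per elemental library, from 16401589 to 25415205 per conventional library, from 7180390 to 9991782 per CD44+ library and from 7933600 to 13378353 per CD44- library. Intron reads were 3.33% to 4.08% of gene reads in elemental and 3.97% to 4.61% in conventional libraries, but 20.6% to 29.02% in CD44+ and 9.40% to 27.04% in CD44- libraries. A gene with 0 reads could still be present at up to 3 reads, which corresponds to 0.135 to 0.187 CPM in elemental, 0.111 to 0.185 CPM in conventional, 0.294 to 0.428 CPM in CD44+ and 0.166 to 0.384 CPM in CD44- libraries; these limits cover counting error only.

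As background, these receptors are type II membrane proteins with a C-type lectin-like domain, and they act as inhibitory or activating members of related families. Inhibitory receptors carry a tyrosine motif in the cytoplasmic tail that recruits the phosphatases encoded by Ptpn6 and Ptpn11, whereas activating receptors pair in the membrane with the small adaptors encoded by Fcer1g, Tyrobp or Hcst. The Klrb1 genes encode the NKR-P1 receptors, which bind Clr proteins encoded by the Clec2 genes that lie among them. Klrd1 encodes CD94, which pairs with NKG2A, the product of Klrc1, to bind the nonclassical class I molecule Qa-1, and Klrk1 encodes NKG2D, a receptor for stress-induced ligands. On T cells they are best known from natural killer T cells, gamma-delta T cells and cytotoxic memory cells.

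The 7 genes span chr6:128609227-129678973 in the GRCm38 build, an interval of 1069747 bases. Klrb1a lay at chr6:128609227-128623533, Klrb1c at chr6:128778485-128789215 and Klrb1b at chr6:128813706-128826331, all on the minus strand. Klrb1f lay at chr6:129045901-129057464 and Klrd1 at chr6:129591782-129598775 on the plus strand. Klrk1 lay at chr6:129610323-129623864 and Klrc1 at chr6:129666015-129678973 on the minus strand. All 7 are annotated as protein-coding in the deposited tables.

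The results turn most on Klrb1b and Klrb1c, which are close relatives, so the sequence that they share is shown first. In the GENCODE transcripts of GRCm38, the coding sequences of Klrb1b and Klrb1c were identical at 581 of 668 aligned bases (87.0%), and those of Klrb1a and Klrb1c at 634 of 685 (92.6%). Klrb1f was less like them, at 71.6% to 74.5%, and the Klrd1, Klrk1 and Klrc1 coding sequences were 60.9% to 66.7% identical to one another and to the Klrb1 genes in global alignments. The longest identical coding stretch of Klrb1b and Klrb1c was 75 bases. It is shown with 50 bases on each side, 5′ to 3′ on the coding strand, for Klrb1b (chr6:128818507-128819005), Klrb1c (chr6:128783698-128784197) and Klrb1a (chr6:128618088-128618549), all on the minus strand of GRCm38. Each span covers parts of 2 exons and the intron between them, which is not printed, and capitals mark bases that differ from Klrb1b.
Klrb1b: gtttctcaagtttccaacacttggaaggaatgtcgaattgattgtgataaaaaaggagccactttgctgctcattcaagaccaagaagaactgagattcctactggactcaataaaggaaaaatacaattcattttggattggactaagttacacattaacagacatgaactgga
Klrb1c: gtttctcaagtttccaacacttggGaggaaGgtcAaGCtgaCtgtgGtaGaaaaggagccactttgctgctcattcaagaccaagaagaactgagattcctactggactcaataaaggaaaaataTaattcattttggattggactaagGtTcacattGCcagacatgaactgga
Klrb1a: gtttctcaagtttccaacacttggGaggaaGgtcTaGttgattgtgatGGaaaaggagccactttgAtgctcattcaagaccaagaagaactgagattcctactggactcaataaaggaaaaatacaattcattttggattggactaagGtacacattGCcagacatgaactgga
Over these 175 bases Klrb1c differed from Klrb1b at 13 positions and Klrb1a at 10. Of all runs of 50 bases in a member's transcripts, 27.2% of those of Klrb1b, 17.0% of those of Klrb1c, 9.92% of those of Klrb1a and 38.6% of those of Klrc1 also occurred in a transcript of another gene. For Klrb1b and Klrb1c the other gene was mostly the gene model Gm44511, described next, with 591 of 631 and 371 of 510 shared runs. For Klrc1 the other gene was mostly Klrc2, which shared 742 of 2030 runs. No such run of Klrb1f, Klrd1 or Klrk1 occurred elsewhere among the transcripts.

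The gene model Gm44511 matters for Klrb1b and Klrb1c. It lies on the same strand at chr6:128780285-128826315, and its exons comprise 599 bases shared with Klrb1b exons and 413 bases shared with Klrb1c exons, which together are all 1012 of its exon bases. Its span covers 99.9% of the Klrb1b gene and 83.2% of the Klrb1c gene, and leaves 16 of 2228 Klrb1b exon bases and 1800 of 2961 Klrb1c exon bases outside it. In the deposited tables only 65 of 7057 Klrb1b exon reads in the elemental group (0.921%) and 42 of 3180 in the conventional group (1.32%) were counted as unique. For Klrb1c 71.03% were unique in the elemental and 71.98% in the conventional group, for Klrc1 63.4% in the elemental and 62.6% in the conventional group, for Klrb1a 91.1% in both, and for Klrb1f, Klrd1 and Klrk1 all of them. Total exon reads, which include reads not counted as unique, were used for all genes here, and the Klrb1b values depend on how the authors' program assigned them.

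In the elemental diet group, Klrb1b, which encodes the inhibitory receptor NKR-P1B, was about 2.56-fold higher than in the conventional group, while Klrb1c, its neighbour, which encodes the activating receptor NKR-P1C known as NK1.1, was lower by a factor of 1.92. The other 5 genes had overlapping values in the 2 groups. All 7 passed the filter on low counts in the CD4+ libraries. The whole-table fit called 2 of the 7, Klrb1b higher and Klrb1c lower, where it called 17.4% of 11938 genes, 9.68% higher and 7.75% lower. In those same 2 genes the groups did not overlap, as in 7.16% of all genes tested, 4.82% with the elemental libraries higher and 2.35% with them lower.

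**Figure D1:**
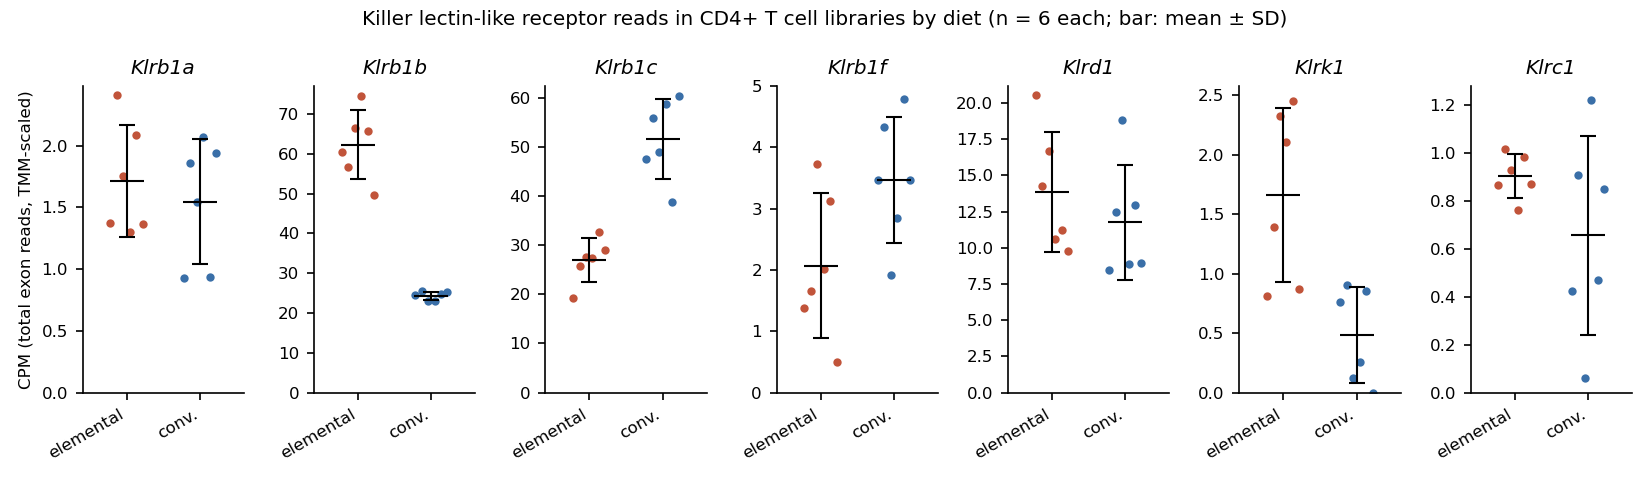
Exon read levels in CPM (vertical axes, each from 0) of the 7 genes in CD4+ T cell libraries on the elemental diet (left of each panel, red) and the conventional diet (right, blue). Each point is 1 library, with the mean ± SD of 6; Klrb1b ran from 49.5 to 74.4 CPM on the elemental diet and from 22.9 to 25.4 CPM on the conventional diet, and Klrb1c from 19.2 to 32.7 CPM on the elemental and from 38.9 to 60.4 CPM on the conventional diet.

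Klrb1b ranged from 49.5 CPM through a median of 63.1 to 74.4 CPM in elemental libraries, against 22.9 CPM through 24.6 to 25.4 CPM in conventional libraries. Every elemental library stood above every conventional one, and the conventional libraries lay close together. The means were 62.2 ± 8.64 CPM in elemental and 24.3 ± 1.08 CPM in conventional libraries (SD, n = 6 each), with a fitted log2 fold change of 1.36 ± 0.10 (SE). Reads over exon-exon junctions of Klrb1b numbered 148 to 270 per elemental library and 74 to 111 per conventional library, of which 6 to 15 per elemental and 0 to 13 per conventional library were unique. With unique reads alone the log2 fold change was 0.80, resting on the 65 and 42 reads given above, and the fit no longer called the gene.

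Klrb1c ranged from 19.2 CPM through a median of 27.5 to 32.7 CPM in elemental libraries, against 38.9 CPM through 52.4 to 60.4 CPM in conventional libraries. Here every elemental library stood below every conventional one. The means were 27.0 ± 4.49 CPM in elemental and 51.8 ± 8.16 CPM in conventional libraries (SD, n = 6 each), and the log2 fold change was -0.94 ± 0.13 (SE) with all exon reads and -0.96 with unique reads alone. Elemental replicate 1 had the lowest value of its group and conventional replicate 5 the lowest of its own.

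The opposite differences left the sum of the locus closer between diets than either gene. Reads of Klrb1b, Klrb1c and Gm44511 together came to 92.6 ± 11.2 CPM in elemental and 78.2 ± 8.67 CPM in conventional libraries (SD, n = 6 each). Klrb1b took 61.1% to 71.1% of these reads in elemental libraries, with a median of 68.9%, and 26.9% to 38.9% in conventional libraries, with a median of 30.5%. The shares of the 2 diets did not overlap. Gm44511 itself had 0.161 to 6.51 CPM in elemental and 0 to 3.33 CPM in conventional libraries.

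**Figure D2:**
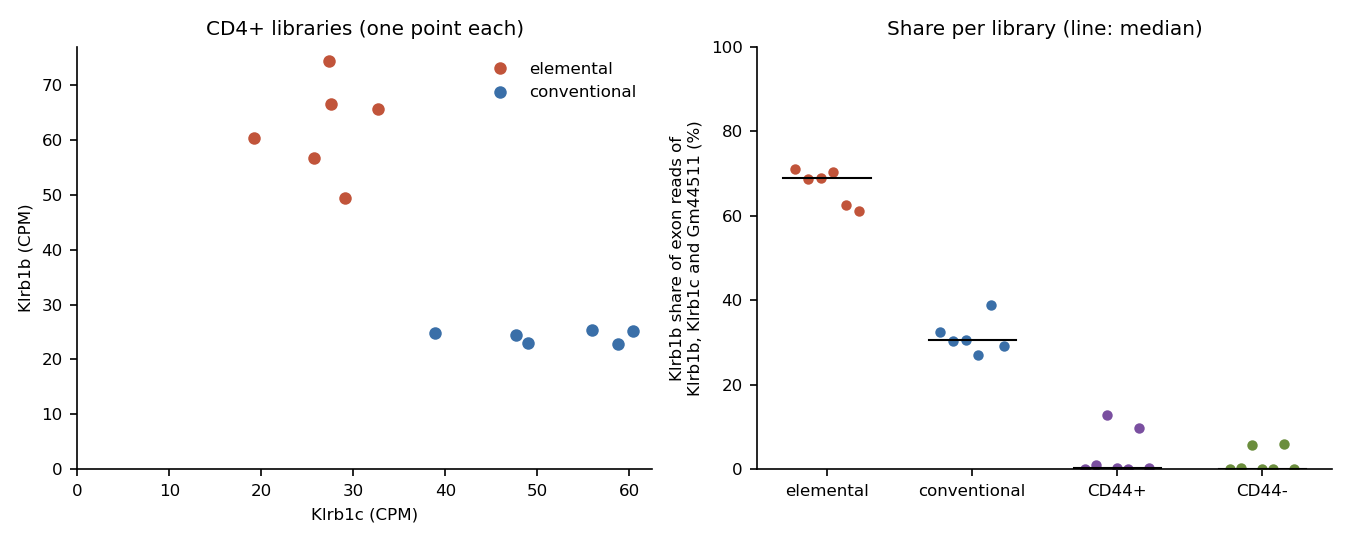
Left, Klrb1b (vertical) against Klrb1c (horizontal) in CPM for the 12 CD4+ libraries, 1 point each, elemental in red and conventional in blue. Right, Klrb1b as a percentage of the exon reads of Klrb1b, Klrb1c and Gm44511 in each library of the 4 groups, with the median as a line; the medians were 68.9% in elemental, 30.5% in conventional, 0.171% in CD44+ and 0% in CD44- libraries.

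The stretches before the RefSeq starts of Klrb1b and Klrb1c are shown because these neighbours had opposite differences. RefSeq promoter sequences on GRCm38.p6 were found for 6 of the 7 genes, all but Klrd1. The 250 bases before the RefSeq start are printed 5′ to 3′ on the coding strand, for Klrb1b from chr6:128826316-128826565 and for Klrb1c from chr6:128788642-128788891, both on the minus strand. The gene models of the tables begin further upstream: the Klrb1c stretch lies wholly inside the Klrb1c gene as the tables give it, with 5 of its bases in a GENCODE exon, and the last 16 bases of the Klrb1b stretch lie in a GENCODE exon. Capitals mark matches on either strand to TGTGGT, a core bound by RUNX factors, GGTGTG, a core bound by T-box factors, and GGAAGT, a core bound by ETS factors.
Klrb1b: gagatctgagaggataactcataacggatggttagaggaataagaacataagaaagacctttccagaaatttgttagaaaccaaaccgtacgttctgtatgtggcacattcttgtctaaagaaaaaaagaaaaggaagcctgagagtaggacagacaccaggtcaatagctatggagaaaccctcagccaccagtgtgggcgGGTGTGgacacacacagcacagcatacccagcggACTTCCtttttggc
Klrb1c: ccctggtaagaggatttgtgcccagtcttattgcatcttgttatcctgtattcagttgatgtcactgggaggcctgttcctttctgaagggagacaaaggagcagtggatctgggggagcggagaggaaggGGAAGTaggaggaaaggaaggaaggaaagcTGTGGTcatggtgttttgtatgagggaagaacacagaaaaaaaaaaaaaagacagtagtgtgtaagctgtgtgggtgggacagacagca
The Klrb1b stretch held GGTGTG 48 bases before the start and the reverse complement of GGAAGT 14 bases before it, within those exon bases. The Klrb1c stretch held GGAAGT 119 bases and TGTGGT 89 bases before the start. No matches overlapped. RefSeq lists a second Klrb1b start, 7 bases downstream of the one used. On either strand, TGTGGT also occurred in the stretches of Klrb1a, Klrk1 and Klrc1, with diet log2 fold changes of 0.15, 1.73 and 0.45. GGTGTG and GGAAGT also occurred in that of Klrb1f, with a log2 fold change of -0.75. Of all 32851 RefSeq promoter stretches of this length, 14% held TGTGGT, 16.3% GGTGTG and 19.7% GGAAGT on either strand. In global alignments the Klrb1c stretch matched that of Klrb1a at 188 of 210 aligned bases (89.5%) and that of Klrb1b at 124 of 205 (60.5%). The other pairs with Klrb1b were Klrb1f at 70.2%, Klrb1a at 66.5%, Klrc1 at 62.1% and Klrk1 at 56.7%. A match to these letters is a description of the sequence and does not show that a factor binds there.

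Klrb1f, which encodes the NKR-P1 receptor NKR-P1F, ranged from 0.498 CPM through a median of 1.84 to 3.72 CPM in elemental libraries, against 1.91 CPM through 3.46 to 4.79 CPM in conventional libraries. The groups overlapped, with 5 of 6 elemental libraries below the conventional mean. Its log2 fold change was -0.75 ± 0.39 (SE). Klrb1a, which encodes NKR-P1A, had 1.30, 1.57 and 2.41 CPM as lowest, median and highest in elemental libraries, against 0.929, 1.70 and 2.07 CPM in conventional libraries. Its groups overlapped, and the log2 fold change of 0.15 ± 0.34 (SE) was smaller than its error.

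Klrd1, the shared CD94 chain, ranged from 9.77 CPM through a median of 12.7 to 20.5 CPM in elemental libraries, against 8.49 CPM through 10.7 to 18.8 CPM in conventional libraries. These ranges coincide for the most part, and the log2 fold change was 0.24 ± 0.23 (SE). Klrc1, the inhibitory NKG2A chain that pairs with it, had 0.764, 0.901 and 1.02 CPM as lowest, median and highest in elemental libraries, against 0.0617, 0.660 and 1.22 CPM in conventional libraries. The elemental values lay within the wider conventional range (log2 fold change 0.45 ± 0.50, SE). Klrc2, the NKG2 gene with which Klrc1 shares most sequence, had 0 to 20 reads per elemental library and 0 to 14 reads per conventional library. Klrd1 reads thus stood well above those of its partner: per kilobase of exon Klrd1 averaged 12.8 ± 3.84 CPM in elemental and 10.9 ± 3.66 CPM in conventional libraries, whereas Klrc1 averaged 0.456 ± 0.0461 CPM in elemental and 0.331 ± 0.209 CPM in conventional libraries (SD, n = 6 each).

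Klrk1, which encodes the activating receptor NKG2D, was sparse. It ranged from 0.815 CPM through a median of 1.75 to 2.46 CPM in elemental libraries, on 14 to 47 reads each, against 0 CPM through 0.510 to 0.908 CPM in conventional libraries, on 0 to 22 reads each. All 6 elemental libraries lay above the conventional mean, but elemental replicates 1 and 6 fell below the highest conventional library. The fitted log2 fold change was 1.73 ± 0.63 (SE). The fit did not call Klrk1, whereas DESeq2, limma-voom, the fit on total gene reads and the fit without conventional replicate 6, the library at 0, did. Among all genes DESeq2 called 2862 of 17335, limma-voom 4095 of 11938 and the fit on total gene reads 2357 of 13088. The fit without conventional replicate 6 called 3865 of 12098, and the main fit 2081 of 11938.

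Per kilobase of exon, the order of mean levels on the elemental diet was Klrb1b (27.9 ± 3.88 CPM), Klrd1 (12.8 ± 3.84), Klrb1c (9.10 ± 1.52), Klrb1f (1.22 ± 0.695), Klrb1a (1.08 ± 0.284), Klrk1 (0.484 ± 0.214) and Klrc1 (0.456 ± 0.0461). On the conventional diet it was Klrb1c (17.5 ± 2.76 CPM), Klrb1b (10.9 ± 0.484), Klrd1 (10.9 ± 3.66), Klrb1f (2.04 ± 0.604), Klrb1a (0.970 ± 0.317), Klrc1 (0.331 ± 0.209) and Klrk1 (0.141 ± 0.117). Neighbours in the order whose ranges of 1 SD overlapped were Klrd1 and Klrb1c, Klrb1f and Klrb1a, and Klrk1 and Klrc1 on the elemental diet, and Klrb1b and Klrd1, and Klrc1 and Klrk1 on the conventional diet. Klrb1c thus headed the order on the conventional diet and Klrb1b on the elemental diet.

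These are bulk libraries of sorted cells, in which fewer cells of a type and less RNA per cell cannot be told apart, and markers of other cells moved with the diet. Of 14 listed myeloid and dendritic cell genes, 13 were called higher in elemental libraries, and their summed level was 929 to 1817 CPM in elemental against 452 to 615 CPM in conventional libraries. Of 10 epithelial genes, 4 were called higher (Cdh1, Epcam, Fabp1 and Vil1), with sums of 456 to 1095 CPM in elemental and 63.3 to 740 CPM in conventional libraries. Of 7 B cell genes, 2 were called lower, Ms4a1, not called without conventional replicate 4 or 5, and Cd22, not called without conventional replicate 4 (adjusted p up to 0.0579), with sums of 178 to 410 CPM in elemental and 312 to 599 CPM in conventional libraries. At an unadjusted p under 0.05 edgeR had 8 epithelial genes higher and 5 B cell genes lower. DESeq2 called 7 epithelial genes higher and 4 B cell genes lower, and limma-voom 10 and 5. In elemental replicates 1 to 6 the myeloid sums were 1817, 1020, 967, 1431, 1274 and 929 CPM, beside 60.5, 56.8, 66.5, 74.4, 65.7 and 49.5 CPM of Klrb1b. Replicate 6 was lowest in both, and the highest values of the 2 measures fell in different libraries. Dendritic cells are also known to express Klrb1b and Klrd1. The part of myeloid, epithelial and B cells in the Klrb1b and Klrb1c differences was not tested. Of 24 listed natural killer and cytotoxic genes, 22 had enough reads for the test in these libraries. Nkg7, a granule protein of cytotoxic cells, averaged 40.2 ± 5.91 CPM in elemental and 51.0 ± 16.8 CPM in conventional libraries, and Cd160 averaged 24.3 ± 4.78 CPM in elemental and 30.9 ± 8.66 CPM in conventional libraries (SD, n = 6 each). Prf1 and Id2 of the same list, named after their values were seen, had higher means on the elemental diet. Prf1 averaged 18.0 ± 3.3 CPM in elemental and 13.6 ± 3.1 CPM in conventional libraries (SD, n = 6 each). Id2 averaged 131 ± 22.0 CPM in elemental and 105 ± 9.9 CPM in conventional libraries (SD, n = 6 each). Ncr1, the natural killer cell receptor NKp46, had too few reads for the test, at 0.0622 to 1.81 CPM in elemental and 0 to 0.972 CPM in conventional libraries, values in the range of Klrk1 and Klrc1. Zbtb16, the transcription factor PLZF of natural killer T cells, was also too low for the test and averaged 0.289 ± 0.338 CPM in elemental and 0.19 ± 0.30 CPM in conventional libraries (SD, n = 6 each).

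Other receptors of the family were set beside the 7. Of 19 other Klr genes in the tables, 5 had enough reads for the test in CD4+ libraries, and 3 of them rose on the elemental diet while 0 fell, with a median log2 fold change of 1.22 against -0.01 over all genes tested. Klrg1, an inhibitory receptor for E-cadherin, had 17.3 to 33.9 CPM in elemental against 5.18 to 7.96 CPM in conventional libraries, without overlap (log2 fold change 1.99 ± 0.18 SE, edgeR adjusted p = 2.26e-05). Klra2, which encodes Ly49B, a receptor known from myeloid cells, had 2.80 to 17.3 CPM in elemental and 0.385 to 3.04 CPM in conventional libraries (2.37 ± 0.49 SE, adjusted p = 0.00557). Klra17, which encodes Ly49Q, known from plasmacytoid dendritic and myeloid cells, had 2.18 to 5.96 CPM in elemental and 0.769 to 2.16 CPM in conventional libraries (1.22 ± 0.36 SE, adjusted p = 0.0289). The fit no longer called Klra17 when any of conventional replicates 1, 4 and 5 and elemental replicates 1 and 3 was left out, at adjusted p = 0.0536 to 0.0746. Klra1 and Klre1 did not pass the threshold. The rise of Klra2 and Klra17 stood beside the higher myeloid sums given above, and the part of those cells was not tested.

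Genes for ligands of these receptors were measured in the same libraries. Of 12 in the tables, 7 were tested, 3 rose and 0 fell on the elemental diet, with a median log2 fold change of 0.33. Cdh1, E-cadherin and the ligand of KLRG1, had 6.48 to 11.2 CPM in elemental and 2.02 to 7.14 CPM in conventional libraries (log2 fold change 1.32 ± 0.31 SE, edgeR adjusted p = 0.00910), and it is also one of the epithelial markers. H2-T23, the Qa-1 ligand of CD94 with NKG2A, averaged 535 ± 37.7 CPM in elemental and 426 ± 77.9 CPM in conventional libraries (SD, n = 6 each; log2 fold change 0.33 ± 0.11 SE, edgeR adjusted p = 0.0440). The H2-T23 call was lost in 10 of 12 fits with 1 library left out, all but those without conventional replicate 6 or elemental replicate 2, at adjusted p = 0.0582 to 0.0983. Clec2e, named after its values were seen, had 0.776 to 2.38 CPM in elemental and 0 to 0.427 CPM in conventional libraries (3.44 ± 0.80 SE, adjusted p = 0.00940). Clec2d, which encodes Clr-b, the ligand of NKR-P1B, averaged 5.33 ± 0.925 CPM in elemental and 5.04 ± 1.20 CPM in conventional libraries (SD, n = 6 each) and was not called. The Clec2i gene for Clr-g, a ligand of NKR-P1F, averaged 16.3 ± 4.02 CPM in elemental and 19.9 ± 4.32 CPM in conventional libraries (SD, n = 6 each), and was not called either. Clec2h averaged 68.7 ± 21.6 CPM in elemental and 17.5 ± 20.4 CPM in conventional libraries (SD, n = 6 each; edgeR adjusted p = 0.0627). Genes of the NKG2D ligands were low: Ulbp1 averaged 0.755 CPM in elemental and 1.29 CPM in conventional libraries, and Raet1d, Raet1e, H60b and H60c had too few reads for the test.

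Adaptors and signalling proteins moved in both directions. Of 15 tested genes, 2 rose and 4 fell on the elemental diet, with a median log2 fold change of -0.09. Fcer1g, the adaptor of activating NKR-P1 receptors, had 43.2 to 95.03 CPM in elemental and 14.1 to 28.4 CPM in conventional libraries (log2 fold change 1.5 ± 0.22 SE, edgeR adjusted p = 0.000696). Tyrobp, the adaptor DAP12, had 52.6 to 126 CPM in elemental and 21.7 to 41.5 CPM in conventional libraries (1.5 ± 0.23 SE, adjusted p = 0.000926). Both adaptors are abundant in myeloid cells, whose markers rose as well, and the part of those cells was not tested. Hcst, the adaptor DAP10 of NKG2D, averaged 148 ± 14.9 CPM in elemental and 140 ± 32.7 CPM in conventional libraries (SD, n = 6 each) and was not called. Ptpn11, the phosphatase SHP-2, had 37.8 to 62.3 CPM in elemental and 98.6 to 136 CPM in conventional libraries (log2 fold change -1.24 ± 0.13 SE, edgeR adjusted p = 6.17e-05), whereas Ptpn6, the phosphatase SHP-1, averaged 125 ± 15.9 CPM in elemental and 109 ± 9.81 CPM in conventional libraries (SD, n = 6 each) and was not called. The kinases Syk (-0.82 ± 0.24 SE, adjusted p = 0.0312), Fyn (-0.52 ± 0.12, adjusted p = 0.00833) and Zap70 (-0.25 ± 0.06, adjusted p = 0.0161) fell, the last 2 named after their values were seen. The fit no longer called Syk when any of conventional replicates 2, 4 and 5 and elemental replicates 2, 4, 5 and 6 was left out, at adjusted p = 0.0532 to 0.0841.

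Natural killer and cytotoxic genes were mostly lower or not past the threshold on the elemental diet. Of 22 tested, 0 rose and 6 fell on the elemental diet by edgeR, with a median log2 fold change of -0.34. At an unadjusted p under 0.05 edgeR had 2 higher and 9 lower, and DESeq2 and limma-voom each called 1 higher. Their summed level was 429 to 765 CPM in elemental against 674 to 1367 CPM in conventional libraries. Gzmb, granzyme B, had 3.8 to 33.99 CPM in elemental and 32.6 to 92.9 CPM in conventional libraries (log2 fold change -2.06 ± 0.48 SE, edgeR adjusted p = 0.0160). Ccl5, a chemokine of cytotoxic cells, had 31.8 to 66.1 CPM in elemental and 95.02 to 253 CPM in conventional libraries (-1.48 ± 0.26 SE, adjusted p = 0.00297). Gzmk, granzyme K, averaged 9.91 ± 4.91 CPM in elemental and 21.9 ± 4.96 CPM in conventional libraries (SD, n = 6 each; -1.14 ± 0.28 SE, edgeR adjusted p = 0.0142). Gzma, granzyme A, averaged 93.1 ± 87.5 CPM in elemental and 334 ± 143 CPM in conventional libraries (SD, n = 6 each; -1.84 ± 0.57 SE, edgeR adjusted p = 0.0497). The Gzma call was lost in 11 of 12 fits with 1 library left out, all but that without elemental replicate 1, at adjusted p = 0.0595 to 0.102. Ifng and Serpinb6b, the other genes of the list that fell, are named after their values were seen. The transcription factors Eomes and Tbx21 averaged 4.50 ± 2.04 and 7.08 ± 1.36 CPM in elemental and 7.69 ± 2.83 and 9.21 ± 1.70 CPM in conventional libraries (SD, n = 6 each) and were not called. Prf1 and Id2, given above, had higher means on the elemental diet and were not called by edgeR.

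**Figure D3:**
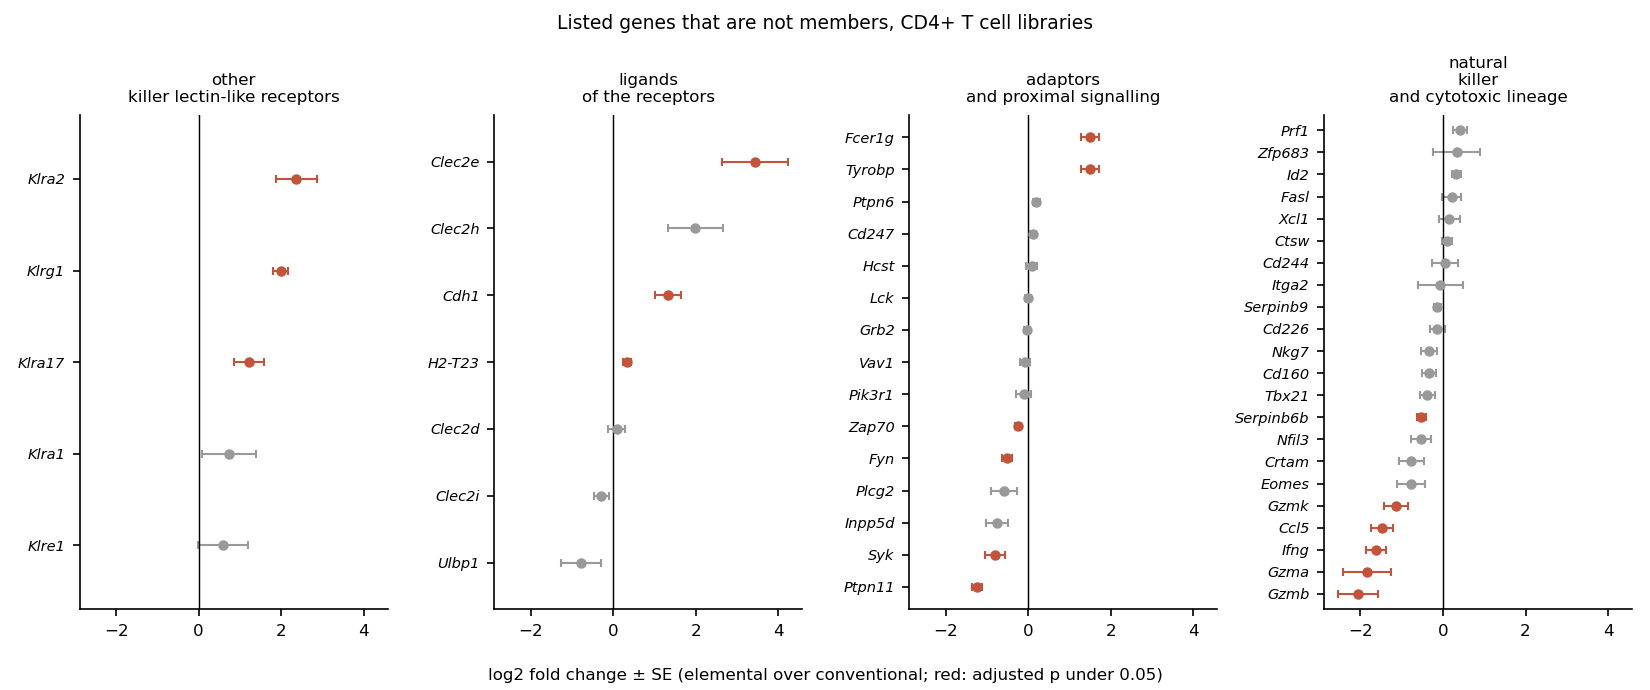
Log2 fold change ± SE (horizontal, elemental over conventional) of the tested genes of 4 lists in CD4+ libraries, with genes past an adjusted p of 0.05 in red. Among other killer lectin-like receptors 3 of 5 rose, among ligands 3 of 7 rose, among adaptors 2 rose and 4 fell, and among natural killer and cytotoxic genes 6 of 22 fell.

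The interval from Klrb1a to Klrc1 holds 34 genes in the tables, 27 of them not members, and 13 of these were tested. In this interval 4 rose on the elemental diet and 0 fell, beside 9.68% of all genes tested that rose, and the median log2 fold change of the 13 was 0.59. The 4 were Clec2e, given above, and 3 genes of C-type lectins known from platelets or myeloid cells, named after their values were seen. Clec1b averaged 8.33 ± 2.72 CPM in elemental and 1.79 ± 1.02 CPM in conventional libraries (SD, n = 6 each; log2 fold change 2.21 ± 0.36 SE, edgeR adjusted p = 0.000930). Clec9a, one of the dendritic cell markers, averaged 3.48 ± 1.40 CPM in elemental and 0.964 ± 0.384 CPM in conventional libraries (SD, n = 6 each; 1.85 ± 0.36 SE, edgeR adjusted p = 0.00328). Clec7a, the beta-glucan receptor dectin-1, averaged 15.1 ± 5.00 CPM in elemental and 4.51 ± 1.26 CPM in conventional libraries (SD, n = 6 each; 1.74 ± 0.23 SE, edgeR adjusted p = 0.000233). Differences within the interval thus ran both ways: Klrb1c and Klrb1f had negative log2 fold changes, and Klrb1b, between them, a positive one.

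**Figure D4:**
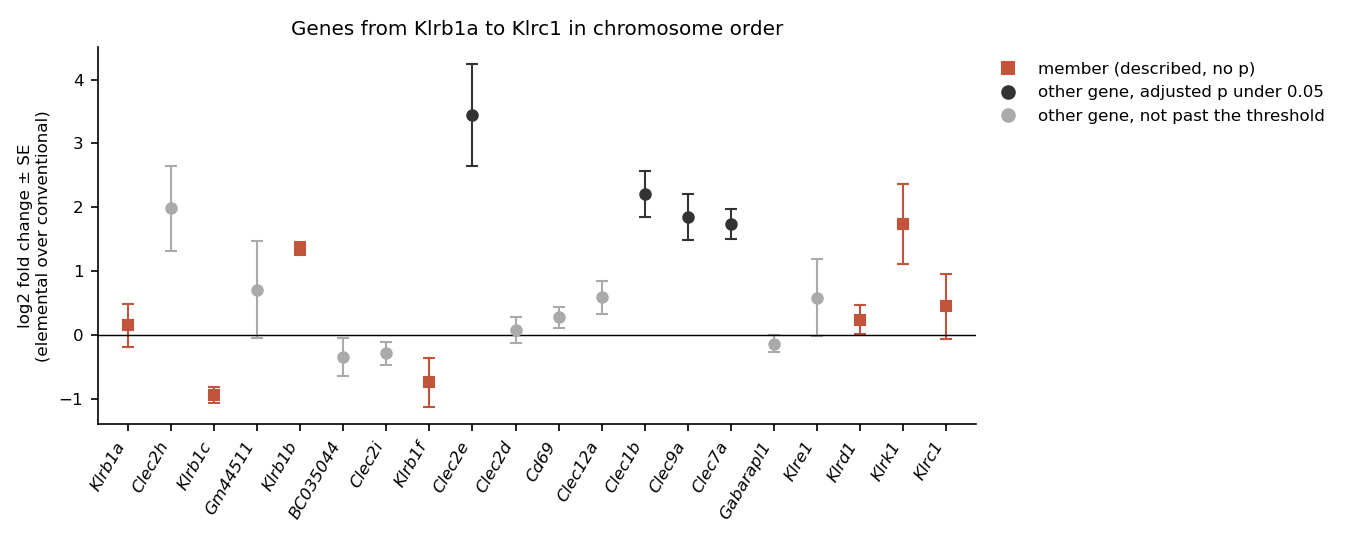
Log2 fold change ± SE (vertical, elemental over conventional) of every tested gene from Klrb1a to Klrc1 in chromosome order (horizontal, not to scale). Red squares are the 7 receptors, which are described without p-values; black points are other genes past an adjusted p of 0.05 and grey points are other genes that were not. Klrb1c at -0.94 and Klrb1b at 1.36 are separated only by Gm44511.

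In CD44+ against CD44- libraries the 7 genes showed large spreads. Klrb1c was the most abundant in CD44+ libraries and had a higher mean there, but its groups overlapped, and the reads of most others came from 1 or 2 libraries of a group. Of the 7 genes, 2 had enough reads for the fit, Klrb1c and Klrd1. The fit called 0 of these 2, where it called 0.767% of 8343 genes, 0.3% higher and 0.467% lower, and DESeq2 and limma-voom with quality weights also called 0. At an unadjusted p under 0.05 edgeR had 1 of the 2, Klrb1c, beside 13.4% of all genes tested. Nothing is read from this, since the genes were chosen with their CD44 differences known. No member had groups without overlap, as 0.755% of the genes tested had, 0.396% with the CD44+ libraries higher and 0.36% with them lower.

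Klrb1c ranged from 38.6 CPM through a median of 167 to 319 CPM in CD44+ libraries, against 3.56 CPM through 35.96 to 195 CPM in CD44- libraries. Of the 7 CD44+ libraries, 6 lay above the CD44- mean, and CD44- replicate 1 alone reached the upper CD44+ range. The means were 168 ± 108 CPM in CD44+ and 61.5 ± 62.7 CPM in CD44- libraries (SD, n = 7 each), with a log2 fold change of 1.45 ± 0.63 (SE). Without CD44- replicate 1 it was 2.10. Klrd1 ranged from 0 CPM through 25.9 to 65.03 CPM in CD44+ libraries, against 0.120 CPM through 44.3 to 186 CPM in CD44- libraries. It had 0 reads in CD44+ replicates 6 and 8, 2 libraries with 297 and 167 CPM of Klrb1c. The Klrd1 log2 fold change was -0.92 ± 1.16 (SE), and -0.10 without CD44- replicate 6.

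For most of the remaining genes 1 or 2 libraries held most of the reads. Klrb1b had 305 reads in CD44+ libraries, 231 of them in replicate 4, and 20 reads in CD44- libraries, 16 of them in replicate 4. Its share of the reads of Klrb1b, Klrb1c and Gm44511 was 0% to 12.7% in CD44+ and 0% to 6.06% in CD44- libraries, so in every library of both groups most of these reads were assigned to Klrb1c. Klrb1f had 528 reads in CD44+ libraries, 305 of them in replicate 7, and 400 reads in CD44- libraries, 398 of them in replicate 1. Klrc1 had 249 reads in CD44+ libraries, 236 of them in replicate 4, and 151 reads in CD44- libraries, 141 of them in replicate 1. Klrb1a had 8 reads over all CD44+ libraries and 153 over all CD44- libraries, 103 of them in replicate 4 and 50 in replicate 5. Klrk1 never exceeded 10 reads in a CD44+ library or 4 in a CD44- library. Klrc2 had 0 reads in all 14 libraries.

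**Figure D5:**
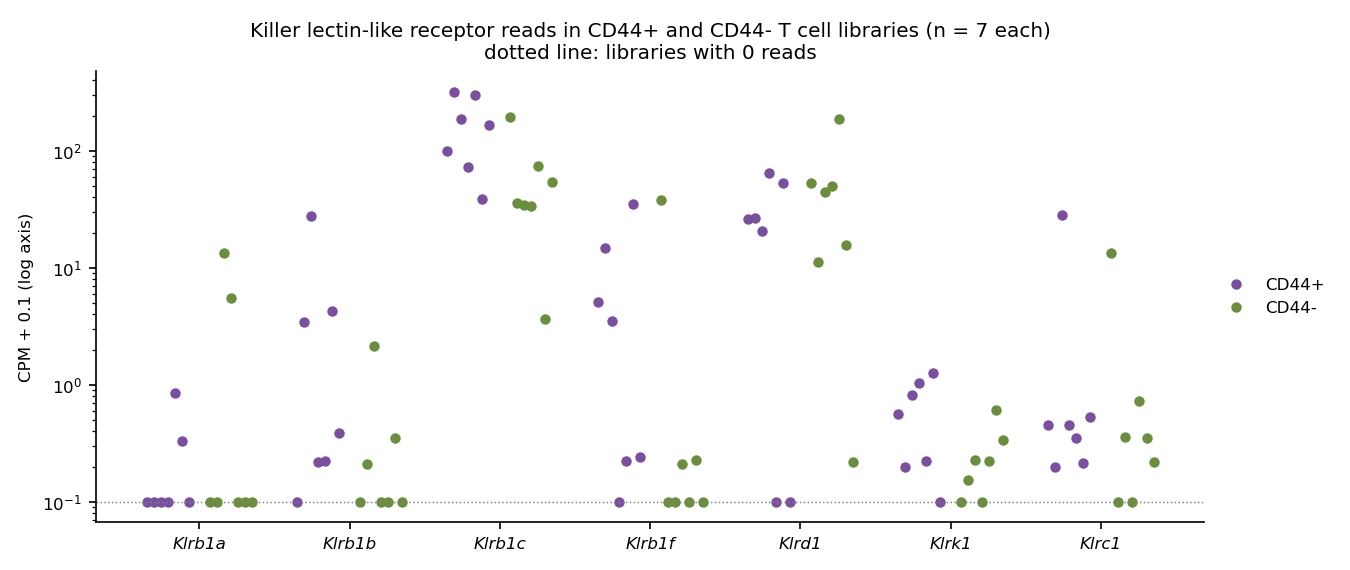
CPM + 0.1 of the 7 genes on a log axis (vertical) in the CD44+ (purple, left of each pair) and CD44- (green, right) libraries, 7 points each. Points on the dotted line are libraries with 0 reads; Klrb1c had reads in all 14 libraries, while Klrc1 exceeded 1 CPM in 1 library of each group, at 28.03 CPM in CD44+ replicate 4 and 13.4 CPM in CD44- replicate 1.

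Per kilobase of exon, Klrb1c (56.9 ± 36.6 CPM) and Klrd1 (25.1 ± 22.6 CPM) came first in CD44+ libraries, and Klrd1 (47.5 ± 57.9 CPM) and Klrb1c (20.8 ± 21.2 CPM) in CD44- libraries. In both groups these neighbours did not differ beyond their spread. The other 5 averaged 0.0881 to 4.92 CPM per kilobase in CD44+ and 0.0440 to 3.2 CPM per kilobase in CD44- libraries, with an SD close to or above the mean for each.

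Few of the listed genes were called between these sorts. Tyrobp had 119 to 288 CPM in CD44+ libraries against 7.34 to 61.5 CPM in CD44- libraries, without overlap (log2 fold change 2.88 ± 0.51 SE, edgeR adjusted p = 0.00911), and it was the 1 gene called of 15 adaptors and signalling genes tested. Fcer1g averaged 146 ± 103 CPM in CD44+ and 34.0 ± 18.0 CPM in CD44- libraries (SD, n = 7 each), without overlap of the groups, but was not called (edgeR adjusted p = 0.0744). Id2, a transcription factor of innate and memory lymphocytes, had 519 to 1013 CPM in CD44+ and 153 to 503 CPM in CD44- libraries (1.34 ± 0.30 SE, adjusted p = 0.0391), the 1 gene called of 14 natural killer and cytotoxic genes tested. Id2 lost its call in 10 of 14 fits with 1 library left out, all but those without CD44+ replicate 2 or CD44- replicate 6, 7 or 8, at adjusted p = 0.0534 to 0.0866. Of 12 myeloid, 6 B cell and 2 epithelial genes tested, edgeR called 0; at an unadjusted p under 0.05 it had 1 myeloid and 2 B cell genes, all higher, while DESeq2 called 1 of each and limma-voom 0. Of 4 ligand genes tested, 0 were called by edgeR, DESeq2 or limma-voom, and 0 were at an unadjusted p under 0.05. No other Klr gene had enough reads for the test. The summed myeloid markers were 960 to 1495 CPM in CD44+ and 698 to 1483 CPM in CD44- libraries, and the natural killer and cytotoxic genes summed to 2266 to 3441 CPM in CD44+ and 814 to 5869 CPM in CD44- libraries. Ncr1 had 0 reads in all CD44+ libraries and at most 1 read in a CD44- library.

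For the 2 receptors tested in both pairs, the genes most like them were sought by the smaller of the 2 Pearson correlations of log2 CPM over the 12 CD4+ libraries and over the 14 CD44 libraries, among 8145 genes. The points share libraries, depth and group means, so these values describe likeness only. Tnfsf8, the ligand of CD30, was most like Klrb1c (r = 0.88 over CD4+ and 0.87 over CD44 libraries), followed by Birc5, the mitotic protein survivin (0.87 and 0.84), and Ankrd46 (0.74 and 0.80). With group means removed, these became 0.35 and 0.81 for Tnfsf8, 0.60 and 0.76 for Birc5, and 0.74 and 0.83 for Ankrd46. The genes most like Klrd1 were Ado, a thiol dioxygenase (0.62 and 0.84), Tmem185b (0.58 and 0.61) and Ifngr2, a chain of the interferon-gamma receptor (0.60 and 0.56). With group means removed, they became 0.67 and 0.85 for Ado, 0.56 and 0.61 for Tmem185b, and 0.60 and 0.53 for Ifngr2.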

How the data were processed

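Messenger RNA of 26 sorted T cell libraries was analysed from per-library tables of 25814 genes. The authors deposited whole read counts per gene, split into exon, intron, junction and unique reads per the file headers. Coordinates follow GRCm38, the build in the submitters' processing notes; which aligner and read counter produced the tables is not given in the sources used here. Genes were matched by exact name, and the coordinates of the 7 receptors in the tables equal those of GENCODE M21.

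Total exon reads were fitted within each pair of groups in R 4.3.3 with edgeR 4.0.16: filterByExpr by group, TMM scaling, and a two-sided quasi-likelihood test with robust spread. Benjamini-Hochberg adjusted p-values under 0.05 over all tested genes were called. CPM values used TMM-scaled library sizes. Standard errors are the log2 fold change over the square root of F. Alternatives used DESeq2 1.42.0, limma 3.58.1, other size factors, no low-count filter, unique or total gene reads, and a replicate block. The scripts were tested on simulated counts. Sequences came from RefSeq and GENCODE, aligned with Biopython 1.88; runs of 50 bases were compared over all transcripts. Figures used matplotlib 3.10.9.

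The members and the 11 gene lists were chosen with earlier results of these data known. Text names all members. Of each pathway list it names up to 4 called genes per comparison, by size of change, if the mean log2 CPM reached 2, and any called Klr gene. It also names the 3 genes most like each member tested in both fits. Some listed genes that were not called are named outside this rule. Among them are Nkg7, Cd160, Ncr1, Zbtb16, Eomes, Tbx21, Hcst, Ptpn6, Clec2d, Clec2i, Clec2h and Ulbp1. The T cell, B cell, CD8, epithelial and myeloid lists are given mainly by counts and sums, with some called genes named and values for Cd4, Cd8a, and genes that another list or the interval also holds. Of the innate-like T cell list, 1 named gene is not reported here. No 2 libraries of a group agreed within counting noise (lowest chi-square per degree of freedom 11.9).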

Additional observations from a re-analysis of the deposited data

Results flagged for a closer look

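In all, 28 sets of 6 or 7 libraries were examined, 1 for each of the 7 receptors in each group. Of these, 10 had 1 library that stood far from the nearest of the others. The rule flags about 5% of sets by chance only if the sets are independent and their values normally distributed. These counts are often low and uneven and the receptors share libraries, so the 10 sets were not judged against that rate. All 10 were in the CD44+ and CD44- libraries made from 1 ng of RNA, and in each the distant library was the highest.

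In CD44+ libraries, replicate 4 had 27.4 CPM of Klrb1b, with the next library at 4.15 CPM, and 28.03 CPM of Klrc1, with the next at 0.428 CPM. Replicate 7 had 35.2 CPM of Klrb1f, with the next at 14.6 CPM, and replicate 6 had 0.753 CPM of Klrb1a on 6 reads, with the next at 0.231 CPM.

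In CD44- libraries, replicate 1 had 195 CPM of Klrb1c, with the next library at 73.6 CPM, 37.9 CPM of Klrb1f, with the next at 0.127 CPM, and 13.4 CPM of Klrc1, with the next at 0.627 CPM. Replicate 4 had 13.2 CPM of Klrb1a, with the next at 5.46 CPM, and 2.05 CPM of Klrb1b on 16 reads, with the next at 0.254 CPM. Replicate 6 had 186 CPM of Klrd1, with the next at 53.2 CPM. The cause of these differences between libraries was not tested.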

How the results depend on the processing

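No result changed direction under any alternative tried. The fit called 2 receptors between diets, 2 to 3 with 1 library left out and 1 (Klrb1c) with unique exon reads; between CD44 sorts it called 0, also with 1 library left out, which says nothing about stability where so few genes passed at all. The log2 fold change of Klrb1b was 0.80 with unique exon reads, with few such reads left. The 2081 genes called between diets became 4095 with limma-voom and quality weights. They became 1299 without conventional replicate 4, 1316 without elemental replicate 4 and 3865 without conventional replicate 6, the range over left-out libraries being 1299 to 3865. The 64 genes called between CD44 sorts became 815 with DESeq2, 101 with total gene reads and 37 with the replicate number as a block, and 36 to 87 with 1 library left out. Of listed genes, 3 were called between CD44 sorts, 16 with DESeq2, 1 without a low-count filter and 1 to 3 with 1 library left out; between diets 34 to 63 were. The cause of these shifts was not tested. Same-numbered libraries for the most part did not deviate together (correlations -0.14 to 0.27 between diets and -0.04 to 0.12 between CD44 sorts). Only elemental replicate 6 (0.27) and CD44+ replicate 2 (0.12) correlated best with the library of their own number. Both CD44 groups carry the same replicate numbers, with the same gap in the numbering. Whether same-numbered libraries share a source is not stated, and these correlations cannot decide it. The numbers were not taken as pairs in the main fits, and with the block 2033 genes were called between diets.

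With 1 library left out, log2 fold changes between diets ran from 1.31 to 1.41 for Klrb1b, -1.02 to -0.86 for Klrb1c, -0.998 to -0.547 for Klrb1f, 0.03 to 0.25 for Klrb1a, 0.09 to 0.42 for Klrd1, 1.49 to 2.00 for Klrk1 and 0.22 to 0.72 for Klrc1. Between CD44 sorts they ran from 1.22 to 2.10 for Klrb1c and -1.30 to -0.10 for Klrd1. Read counts were lowest for Klrk1, Klrc1 and Klrb1a between diets, and in the CD44 libraries only Klrb1c and Klrd1 passed the filter on low counts.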

Other observations

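Cytokine genes known to act on cells with these receptors were also measured. Of 13 tested genes of the list for interleukin-15, interleukin-12 and interleukin-18, 1 rose and 3 fell on the elemental diet, with a median log2 fold change of -0.24. Il15, the cytokine itself, named after its values were seen, averaged 1.88 CPM in elemental and 0.341 CPM in conventional libraries (log2 fold change 2.48, edgeR adjusted p = 0.0277), but not when any of conventional replicates 2, 4 and 5 and elemental replicates 4, 5 and 6 was left out (adjusted p = 0.0547 to 0.0628). Il12rb2, a chain of the interleukin-12 receptor, also named after its values were seen, averaged 0.283 CPM in elemental and 1.72 CPM in conventional libraries (-2.57, adjusted p = 0.0213), but not without conventional replicate 5 or elemental replicate 4 (adjusted p = 0.0505 and 0.0536). The signalling genes Stat5b (-0.42, adjusted p = 0.0274) and Jak3 (-0.38, adjusted p = 0.0216) fell. Stat5b was not called when any of conventional replicates 1, 4 and 5 and elemental replicates 4 and 6 was left out (adjusted p = 0.0519 to 0.0687), and Jak3 without conventional or elemental replicate 5 (0.0529 and 0.0514). Between CD44 sorts 1 of 8 tested genes of this list was called, Il2rg, the common gamma chain, at 942 to 1776 CPM in CD44+ and 1939 to 4234 CPM in CD44- libraries (-1.08 ± 0.24 SE, edgeR adjusted p = 0.0378). It was not called when any of CD44+ replicates 1, 2, 4, 5, 6 and 7 and CD44- replicates 4 and 5 was left out (adjusted p = 0.0514 to 0.0911).

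Among tested innate-like T cell genes, Blk, a kinase of B cells and gamma-delta T cells, averaged 15.8 ± 3.14 CPM in elemental and 25.7 ± 8.13 CPM in conventional libraries (SD, n = 6 each; -0.70 ± 0.20 SE, edgeR adjusted p = 0.0264). Blk was not called when any of conventional replicates 2, 4 and 5 and elemental replicates 1, 4 and 5 was left out (adjusted p = 0.0508 to 0.0679). Of the 2 CD8 chains Cd8b1 was called higher on the elemental diet, but not when any of conventional replicates 1, 2, 4 and 5 and elemental replicates 1, 2, 3 and 6 was left out (adjusted p up to 0.0882). Cd8a averaged 20.5 ± 8.92 CPM in elemental and 31.8 ± 12.2 CPM in conventional libraries (SD, n = 6 each; log2 fold change -0.63, edgeR adjusted p = 0.122), with the opposite sign. Of 13 T cell core genes 5 were called lower, Cd4, Cd5, Cd6, Cd28 and Zap70, of which Cd4 and Cd5 were not called when any of conventional replicates 1 and 5 and elemental replicates 4 and 6 was left out (adjusted p up to 0.0698), Cd4 also without conventional replicate 4 and Cd5 also without elemental replicate 5. Between CD44 sorts edgeR called 0 of 3 innate-like, 0 of 2 CD8 and 0 of 13 T cell core genes; at an unadjusted p under 0.05 it had 1, 0 and 4 of them, DESeq2 called 1, 0 and 1, and limma-voom 0.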
